A study of Mus musculus with 15 samples.

Results

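The genes described here are 10 genes of early B cell development and of the pre-B cell receptor: Ebf1, Pou2af1, Vpreb1, Vpreb3, Dntt, Cd79b, Blnk, Btk, Cd22 and Cd24a. They were chosen by name, through the gene symbols of the array's probes, by a rule that uses no values. Earlier results of these data were known when they were chosen. They are 10 of 9834 named genes on the array and are measured by 13 of its 20205 probes: 8 genes have 1 probe each, Ebf1 has 3 and Cd24a has 2. Each of 15 cDNA arrays compared a mouse lymphoid ES cell line (ES, embryonic stem) after treatment, labelled in one dye, with the untreated line in the other. The treated RNA was in Cy5 on 8 arrays (1 to 8) and in Cy3 on 7 dye swaps (9 to 15). Genotype, strain, agent, dose and duration are not in the labels, nor is what makes the line lymphoid, whether it is 1 clone, or which arrays share a culture or an RNA extract. Their protocol text mentions organs and a reference pool of control animals, which goes against a cell line, so the channel names were followed. The p-values below measure the spread between arrays only, which may be technical.

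B cell development begins when transcription factors such as Ebf1 switch on the B-lineage programme in a lymphoid progenitor. Immunoglobulin heavy chain genes are then cut and rejoined, with terminal deoxynucleotidyl transferase, the product of Dntt, adding untemplated nucleotides at the joints. The new heavy chain pairs with a surrogate light chain that includes Vpreb1 and, with the signalling chains Cd79a and Cd79b, forms the pre-B cell receptor. Syk, Blnk and Btk pass its signal on to survival, division and light chain rearrangement. Undifferentiated ES cells are not known for this programme, and a ratio array does not show whether a gene is expressed in either RNA: it gives the relative amount only. Levels of different genes are therefore not compared here.

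For a view of the sites that regulators in the group are known to read, promoter windows (250 bases before to 50 after a RefSeq start site, GRCm38.p6) were searched on both strands for short strings. RefSeq windows were matched for 8 of the 10 genes, 9 windows in all. The octamer core ATGCAAA, the kind of site through which the coactivator Pou2af1 acts with Oct factors, was in 2 of the 9 windows (Blnk and Vpreb3) and in 4.63% of 32851 windows of the same length. The string CCCNNGGG, the core of an EBF palindrome, was in 1 of 9 (Cd22), against 13.7% of all windows. The E-box CAGGTG was in 3 of 9 (Blnk, Cd22 and Vpreb1), against 20.2%, and the ETS string GAGGAA in 4 of 9 (Btk, a window of Ebf1, Pou2af1 and Vpreb1), against 28.3%. The motifs did not overlap in these windows. A match describes letters and is not a binding site. The 3 windows that hold the octamer core or the EBF string are shown because regulators in the group are known to act at sites of these kinds. Whether they act at these windows was not tested. They are read 5′ to 3′ on the gene's strand, with every match in capitals.
Blnk, chr19:40994172-40994471, minus strand: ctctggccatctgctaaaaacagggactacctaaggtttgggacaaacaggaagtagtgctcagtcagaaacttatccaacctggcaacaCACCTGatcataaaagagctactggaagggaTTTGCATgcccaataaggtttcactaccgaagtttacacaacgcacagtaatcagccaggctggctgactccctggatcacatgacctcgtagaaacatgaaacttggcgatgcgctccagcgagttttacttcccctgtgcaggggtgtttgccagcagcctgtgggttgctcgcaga
Vpreb3, chr10:75948050-75948349, plus strand: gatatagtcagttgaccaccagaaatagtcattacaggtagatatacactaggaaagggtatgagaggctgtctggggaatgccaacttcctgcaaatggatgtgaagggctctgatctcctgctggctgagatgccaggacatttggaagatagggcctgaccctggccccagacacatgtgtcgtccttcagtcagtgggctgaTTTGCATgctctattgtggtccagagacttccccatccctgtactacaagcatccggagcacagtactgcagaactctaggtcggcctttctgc
Cd22, chr7:30878979-30879278, minus strand: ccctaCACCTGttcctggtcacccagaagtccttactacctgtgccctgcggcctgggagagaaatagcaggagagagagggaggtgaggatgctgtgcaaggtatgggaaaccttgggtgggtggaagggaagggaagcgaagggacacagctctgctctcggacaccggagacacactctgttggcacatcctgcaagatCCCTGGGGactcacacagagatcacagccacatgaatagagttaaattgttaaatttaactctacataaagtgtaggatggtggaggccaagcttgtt
In Blnk the octamer core starts at -129 from the start site and the E-box at -160, both on the opposite strand. In Vpreb3 the octamer core starts at -44, also on the opposite strand. In Cd22 the EBF string starts at -48 and the E-box at -245.

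The measured quantity is the log2 ratio of the 2 channels as the authors deposited it. The sources used here do not give its direction. A value above 0 was read as more RNA in the treated line. The basis is the sign of placeholder values (absolute log2 above 10, set missing here): 1117 of 1117 were above 0 in the Cy5 orientation, and 882 of 882 were below 0 on the swaps. This reading assumes that placeholders always mark an empty Cy3 channel, which was not tested. If they mark an empty untreated channel, the same signs arise with swaps that still have to be turned. Each gene has a treatment estimate, the mean of both dye orientations, and a dye effect, 0.5 times the difference of treated in Cy5 minus treated in Cy3. If the deposited swaps still have to be turned, the dye effect is the response to treatment instead. Both are therefore given for each of the 10 genes and, as counts, for each list. Genes named from the lists are mostly given by the treatment estimate, or by the dye effect where that passed. Between 19213 and 19973 probes per array were measured. The correlation over probes between arrays of opposite orientation had a median of -0.0576 over 56 pairs, and that between arrays with treated RNA in Cy5 one of 0.0908. Swaps that still have to be turned would give correlations below 0 between orientations, as would dye effects. The direction of the ratio thus stays unsettled. Arrays 7, 8 and 15 stood apart, with fewer than 50 placeholders each and no correlation with any other array above 0.0835, so results that rest on them are given with and without them. Of the 195 values of the 13 probes, 194 were measured and none was a placeholder; 1 of Ebf1 was missing. Of the measured ones, 22 (11.3%) were dim, that is, equal to the ratio of whole numbers up to 6 after removal of 1 constant per array, against 10.3% of all values on the arrays.

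None of the 10 genes had a treatment estimate that passed limma's test over 9720 genes (Benjamini-Hochberg adjusted p under 0.05), where 4 genes, or 0.0412%, passed. At an unadjusted p under 0.05 the count was also 0 of 10, against 7.02% of all genes. Estimates were above 0 for 7 genes and below 0 for 3, against 52.0% of all genes above 0, and their median was 0.045 against 0.0054 over all genes tested (log2). For the dye effect, 0 of the 10 passed after adjustment, against 2.61% of all genes. Pou2af1, Vpreb1 and Dntt had an unadjusted p under 0.05, or 30.0% of the 10, against 19.5% of all genes; all 3 dye effects were below 0. Dye effects were below 0 for 6 of the 10 genes, against 50.8% of all genes. The median standard error of the 10 genes was 0.0903, next to 0.0899 over all genes.

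**Figure D1:**
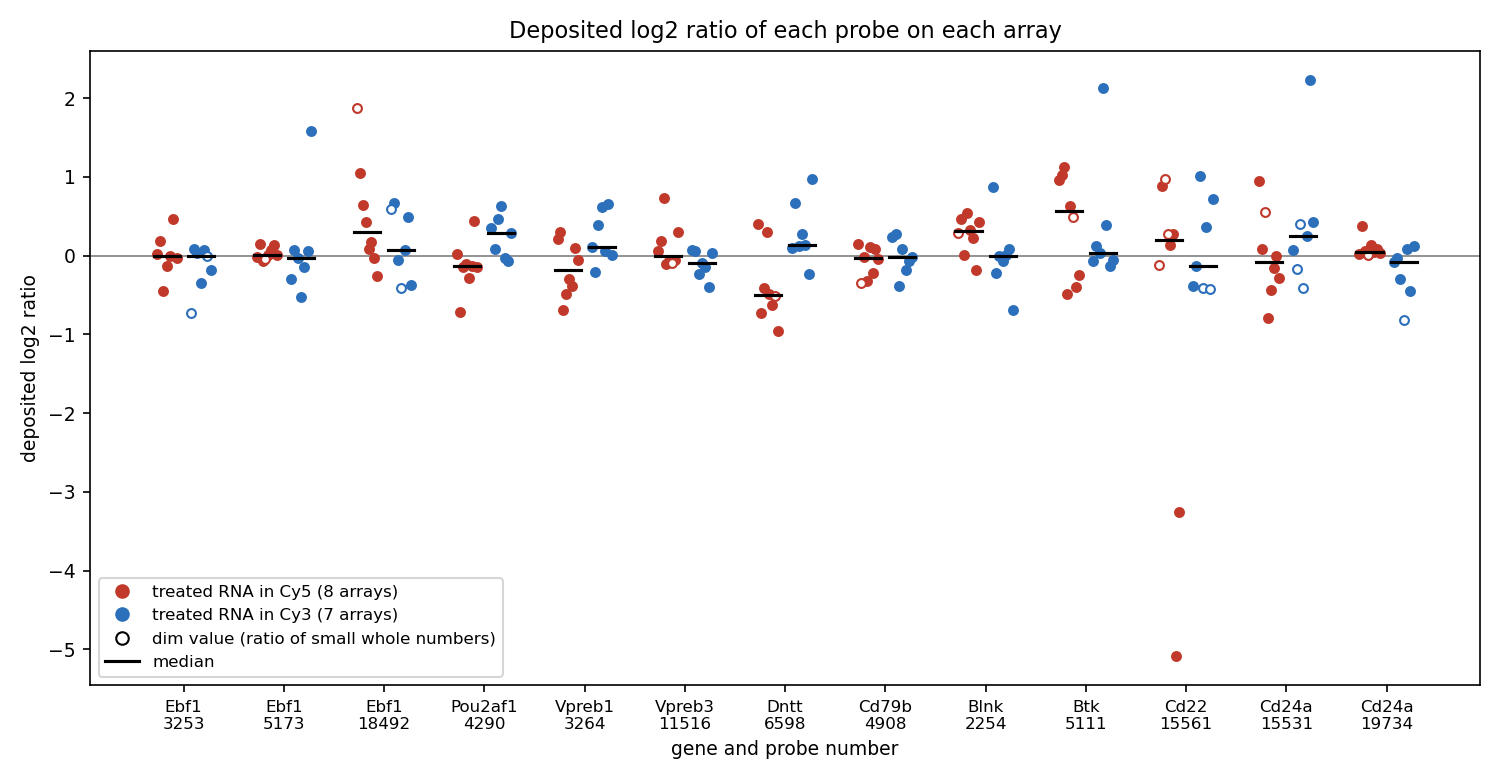
Deposited log2 ratio (y axis) of each of the 13 probes (x axis) on every array, with treated RNA in Cy5 in red (8 arrays) and in Cy3 in blue (7 arrays); bars are medians and open circles are dim values. Both orientations overlap for every probe, and the lowest values are those of Cd22 on arrays 7 and 8 at -5.087 and -3.261.

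Ebf1, the early B cell factor that commits progenitors to the B lineage, had a treatment estimate above 0 whose interval included 0. Averaged over its probes, it had a lowest value of -0.0917, a median of 0.14 and a highest of 0.629 with treated RNA in Cy5, against -0.425, -0.0003 and 0.34 with treated RNA in Cy3. The 2 orientations overlapped, with 5 of 8 and 3 of 7 arrays above 0. Its treatment estimate was 0.11 ± 0.07 (SE, n = 15 arrays; 95% interval -0.04 to 0.26; limma adjusted p = 0.774) and the dye effect 0.08 ± 0.07 (limma adjusted p = 0.566). As a linear ratio the interval ran from 0.973 to 1.20.

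The 3 probes of Ebf1 did not give the same picture. Probe 18492 had a lowest value of -0.26, a median of 0.30 and a highest of 1.878 in the Cy5 orientation, against -0.407, 0.072 and 0.664 in the Cy3 orientation. Its highest value, on array 1, was dim, as were 2 of its dye-swap values. Its treatment estimate was 0.32 ± 0.14 (SE), the only one of the 13 probes with an unadjusted p under 0.05 (limma, p = 0.0424, adjusted p = 0.720), or 7.69% of them against 6.87% of all probes. Without dim values the estimate was 0.23 (limma, unadjusted p = 0.0795), and without array 1 it was 0.22. After adjustment 0 of the 13 passed, against 0.0503% of all probes. Probe 3253 had an estimate of -0.07 ± 0.08 (SE, n = 14 arrays; limma adjusted p = 0.847) and probe 5173 one of 0.07 ± 0.12 (SE, n = 15 arrays; limma adjusted p = 0.903). Over the arrays, the correlations between these probes were 0.16 (3253 with 5173), 0.07 (3253 with 18492) and -0.19 (5173 with 18492). Without the 2 arrays farthest from the median of the first probe they were 0.0077, 0.40 and 0.0013, so these values rest on few arrays. A single dye-swap value set probe 5173 apart: 1.582 on array 15, where the next highest was 0.068.

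Pou2af1, the B cell coactivator OBF-1 that works with Oct factors at octamer sites, had medians of opposite sign in the 2 orientations. With treated RNA in Cy5 it had a lowest value of -0.719, a median of -0.136 and a highest of 0.444, against -0.067, 0.292 and 0.634 with treated RNA in Cy3. It was below 0 on 6 of 8 arrays of the Cy5 orientation and above 0 on 5 of 7 dye swaps, with overlap between them. None of its values was dim. The treatment estimate was 0.06 ± 0.08 (SE, n = 15 arrays; limma adjusted p = 0.877), and the dye effect -0.19 ± 0.08 (limma, unadjusted p = 0.0273, adjusted p = 0.188).

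Vpreb1, the V-like part of the surrogate light chain, also had medians of opposite sign in the 2 orientations. It had a lowest value of -0.692, a median of -0.18 and a highest of 0.307 with treated RNA in Cy5, against -0.212, 0.11 and 0.661 with treated RNA in Cy3. On the dye swaps 6 of 7 arrays were above 0, and in the Cy5 orientation 5 of 8 were below 0. Over both orientations the treatment estimate was 0.03 ± 0.09 (SE, n = 15 arrays; limma adjusted p = 0.947), a linear ratio of 1.02 with an interval of 0.900 to 1.17. The dye effect was -0.20 ± 0.09 (limma, unadjusted p = 0.0388, adjusted p = 0.223).

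Vpreb3, a related protein that binds newly made light and heavy chains inside the cell, had medians closer to 0 than Vpreb1 but reached 0.734 on array 3. Its lowest value was -0.103, its median 0.001 and its highest 0.734 in the Cy5 orientation, against -0.401, -0.096 and 0.072 in the Cy3 orientation. The treatment estimate was 0.01 ± 0.07 (SE, n = 15 arrays; 95% interval -0.13 to 0.15; limma adjusted p = 0.984), and the dye effect was 0.11 ± 0.07 (limma adjusted p = 0.388). The genes whose windows hold the octamer core, Blnk and Vpreb3, had correlations over the 15 arrays with Pou2af1 of -0.39 and -0.30, and of -0.68 and -0.24 without the 2 arrays farthest from the median of Blnk (9 and 15) or of Vpreb3 (3 and 8). These are a description over shared arrays and hence shared dye effects. Vpreb1 and Vpreb3 had the lowest correlation of the 45 pairs among the 10 genes, -0.56, and it was -0.02 without arrays 3 and 14, the farthest from the Vpreb1 median.

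Dntt, the terminal transferase of V(D)J joining, differed most between the 2 orientations in units of its error. It had a lowest value of -0.952, a median of -0.50 and a highest of 0.406 with treated RNA in Cy5, against -0.228, 0.138 and 0.969 with treated RNA in Cy3. It was below 0 on 6 of 8 arrays of the Cy5 orientation and above 0 on 6 of 7 dye swaps. The mean was -0.377 ± 0.482 (SD, n = 8) with treated RNA in Cy5 and 0.293 ± 0.400 (SD, n = 7) with treated RNA in Cy3. The ranges overlapped through arrays 1 and 4, at 0.406 and 0.304. Its dye effect of -0.33 ± 0.11 (SE, 95% interval -0.57 to -0.10) did not pass after adjustment (limma, unadjusted p = 0.00792, adjusted p = 0.107), and 3.18% of genes had a lower one; 33.2% had a lower treatment estimate. Without arrays 7, 8 and 15 the dye effect was -0.22 (limma adjusted p = 0.245). Under limma's array weights it was -0.32 and passed at an adjusted p of 0.0480. Over its alternatives the limma adjusted p ran from 0.0480 to 0.950. The latter is that with the swaps turned, which only exchanges the dye effect and the treatment estimate. In limma's fit the treatment estimate was -0.04 ± 0.11 (SE, n = 15 arrays; limma adjusted p = 0.950).

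**Figure D2:**
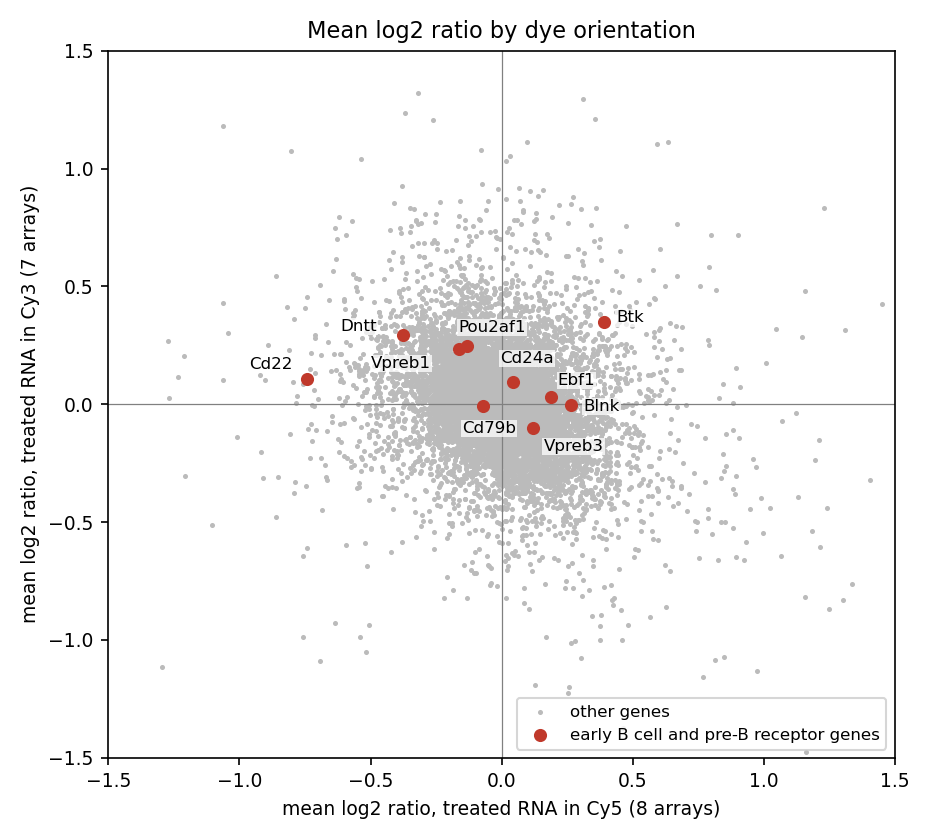
Mean log2 ratio of each gene on the arrays with treated RNA in Cy5 (x axis, 8 arrays) against that on the dye swaps with treated RNA in Cy3 (y axis, 7 arrays), for 9711 genes inside the axis limits (9 lie outside). The 10 genes in red lie among the other genes; Dntt, Vpreb1 and Pou2af1 are below 0 on the x axis and above 0 on the y axis, and Btk is above 0 on both.

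Cd79b, the Ig-beta chain that carries the receptor's signal into the cell, had the narrowest spread. It had a lowest value of -0.342, a median of -0.026 and a highest of 0.148 with treated RNA in Cy5, against -0.38, -0.011 and 0.272 with treated RNA in Cy3. The treatment estimate was -0.04 ± 0.06 (SE, n = 15 arrays; limma adjusted p = 0.890) and the dye effect -0.03 ± 0.06 (limma adjusted p = 0.814). The 95% interval of the linear ratio was 0.889 to 1.06. Only 13.5% of the 9720 genes had a smaller standard error.

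Blnk, the adaptor that links Syk to Btk and phospholipase C gamma, was above 0 on 7 of 8 arrays with treated RNA in Cy5 and on 3 of 7 with it in Cy3. It had a lowest value of -0.187, a median of 0.312 and a highest of 0.546 in the Cy5 orientation, against -0.69, -0.002 and 0.877 in the Cy3 orientation. The dye swaps therefore spread wider than the Cy5 arrays and enclosed them. Its treatment estimate was 0.13 ± 0.09 (SE, n = 15 arrays; 95% interval -0.07 to 0.33; limma adjusted p = 0.785), and the dye effect was also 0.13 ± 0.09 (limma adjusted p = 0.460). Without arrays 7, 8 and 15 the treatment estimate was 0.21 (limma, unadjusted p = 0.0310, adjusted p = 0.587), and without array 9, which held the 0.877, it was 0.058 (limma adjusted p = 0.886).

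Btk, the tyrosine kinase downstream of the receptor whose loss causes X-linked immunodeficiency, had the highest treatment estimate of the 10 genes. It had a lowest value of -0.492, a median of 0.57 and a highest of 1.123 with treated RNA in Cy5, against -0.127, 0.034 and 2.133 with treated RNA in Cy3. Arrays 1, 2 and 3 gave 0.966, 1.03 and 1.123, and arrays 4, 7 and 8 gave -0.492, -0.392 and -0.246. The estimate was 0.37 ± 0.18 (SE, n = 15 arrays; limma, unadjusted p = 0.0524, adjusted p = 0.712), a linear ratio of 1.29 with a 95% interval of 0.997 to 1.67. It was above 0 on 9 of 15 arrays, and 98.4% of genes had a lower estimate, while 87.5% had a smaller standard error. On the dye effect, the response if the swaps have to be turned, 56.7% of genes had a lower value than Btk. Array 12 alone held the value of 2.133, and without it the value was 0.22 (limma adjusted p = 0.778). Without arrays 7, 8 and 15 it was 0.52 (limma, unadjusted p = 0.0173, adjusted p = 0.561). The dye effect was 0.02 ± 0.18 (limma adjusted p = 0.961).

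Cd22, a sialic acid-binding receptor that dampens B cell receptor signals, had the widest spread. It had a lowest value of -5.087, a median of 0.20 and a highest of 0.971 with treated RNA in Cy5, against -0.425, -0.136 and 1.016 with treated RNA in Cy3. Arrays 7 and 8, at -5.087 and -3.261, lay far below the other 13, which ran from -0.425 to 1.016. On array 7 only 26 probes had a lower value, and on array 8 only 22. Of the 15 values of Cd22, 5 were dim. The values on arrays 7 and 8 could not be called dim, because they lie beyond the range of ratios that the rule covers. Whether their signal was weak was therefore not tested. The treatment estimate was -0.32 ± 0.39 (SE, n = 15 arrays; 95% interval -1.15 to 0.51; limma adjusted p = 0.865), and the dye effect -0.42 ± 0.39 (limma adjusted p = 0.587). Without arrays 7, 8 and 15 the dye effect was 0.20 (limma adjusted p = 0.400). Without dim values the treatment estimate was -0.55 and the dye effect -0.86 (limma adjusted p = 0.824 and 0.370). Over both orientations the treatment estimate was -0.0069 without array 7, -0.14 without array 8, and 0.20 (limma adjusted p = 0.729) without arrays 7, 8 and 15, so the sign of the estimate depended on those arrays. In all, 99.2% of genes had a smaller standard error.

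Cd24a, the heat stable antigen on the surface of immature B cells and of many other cell types, has 2 probes that differed. Probe 15531 had a lowest value of -0.794, a median of -0.0835 and a highest of 0.951 with treated RNA in Cy5, against -0.407, 0.253 and 2.237 with treated RNA in Cy3; 4 of its 15 values were dim. Probe 19734 had a lowest value of 0.011, a median of 0.051 and a highest of 0.376 with treated RNA in Cy5, against -0.822, -0.075 and 0.126 with treated RNA in Cy3. It was above 0 on 8 of 8 arrays of the Cy5 orientation and on 2 of 7 dye swaps, with a dye effect of 0.15 ± 0.07 (SE; limma, unadjusted p = 0.0438, adjusted p = 0.229). On arrays 1 and 4 its values, 0.026 and 0.011 (dim), were no higher than the medians of those arrays over all probes, 0.041 and 0.011. Over the 13 probes the dye effect had an unadjusted p under 0.05 for 4 (30.8%), against 20.3% of all probes, and passed after adjustment for 0, against 2.74%. The treatment estimate was 0.20 ± 0.17 for probe 15531 and -0.06 ± 0.07 for probe 19734 (SE, n = 15 arrays each; limma adjusted p = 0.807 and 0.862). The 2 probes had the same sign on 7 of 15 arrays and a correlation of -0.20, which was 0.20 without arrays 1 and 14. Without array 14 the estimate of probe 15531 was 0.043. Their mean gave a treatment estimate of 0.07 ± 0.09 (SE; limma adjusted p = 0.874) and a dye effect of -0.03 ± 0.09 (limma adjusted p = 0.905). With each array left out in turn, this treatment estimate ran from 0.0036 (without array 14) to 0.13 (without array 12).

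**Figure D3:**
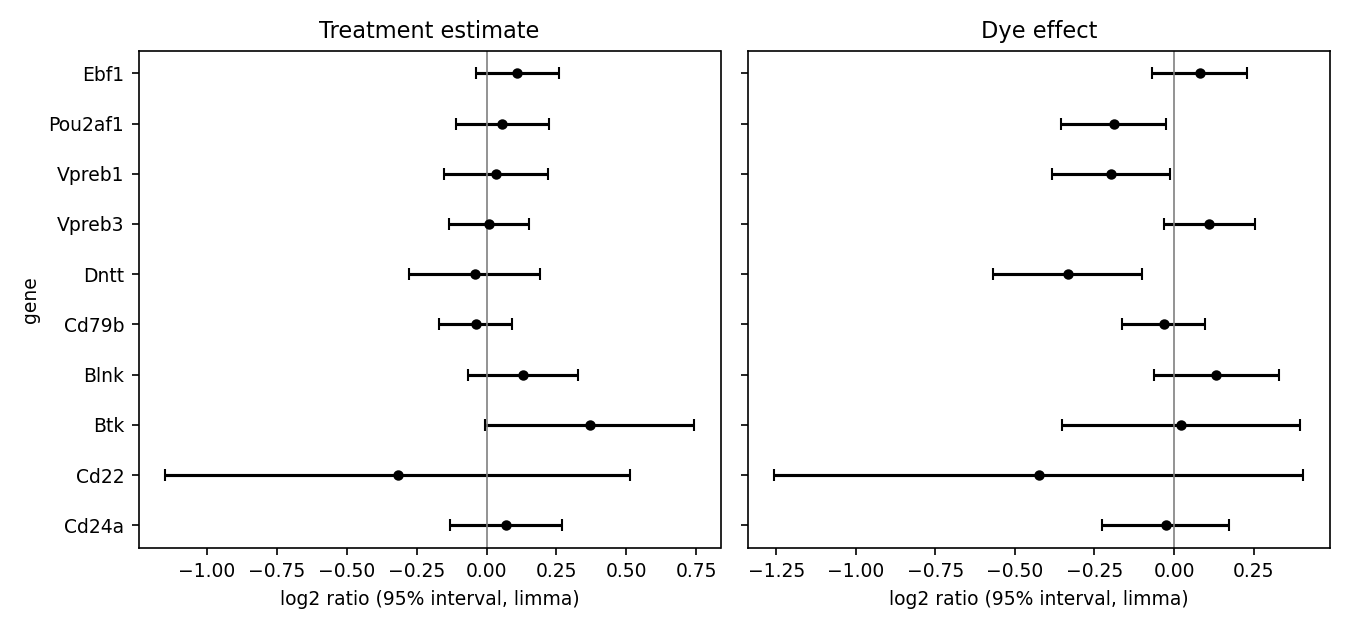
Treatment estimate (left panel) and dye effect (right panel) of each gene, as log2 ratios (x axes) with 95% intervals from limma over 15 arrays. Every interval of the treatment estimate includes 0, and those of the dye effect lie below 0 for Pou2af1, Vpreb1 and Dntt before adjustment.

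Values of absolute log2 of 1 or more made up 10 of the 194 measured values (5.15%), against 6.40% of all values on the arrays. They came from Btk (arrays 2, 3 and 12), Cd22 (arrays 7, 8 and 11), Cd24a probe 15531 (array 14) and Ebf1 (probe 5173 on array 15, probe 18492 on arrays 1 and 2). Array 12 had 186 probes above the Btk value, and array 14 had 91 above the Cd24a value. Pou2af1, Vpreb1, Vpreb3, Dntt, Cd79b and Blnk had no such value.

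The array constant and the number of placeholders divide the arrays into 3 sets, defined here after the values were seen. They are not the study's groups, and the labels do not say what sets them apart. Set C has few placeholders; in set A the constant has the same sign as the array's placeholders, and in set B the opposite sign. Set A holds 4 arrays with treated RNA in Cy5 and 4 in Cy3, set B 2 and 2, and set C (arrays 7, 8 and 15) 2 and 1. The treatment estimate of Btk was 0.59 in set A, 0.39 in set B and -0.19 in set C, and that of Blnk 0.25, 0.14 and -0.28. Cd22 gave 0.08, 0.45 and -1.73. Ebf1 (0.15, 0.01 and 0.20), Pou2af1 (0.0059, 0.0035 and 0.22) and Cd24a (0.10, 0.0023 and 0.12) were above 0 in all sets, while Dntt gave 0.05, -0.21 and 0.12. The dye effect of Dntt was -0.16 in set A, -0.34 in set B and -0.85 in set C. That of Vpreb1 was -0.23, -0.28 and 0.01, and that of Pou2af1 -0.24, -0.21 and -0.07. Those of Vpreb3 (0.15, 0.056 and 0.048) and Blnk (0.080, 0.14 and 0.41) were above 0 in all 3 sets, as those of Dntt and Pou2af1 were below 0, and no test of the difference between sets was run.

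**Figure D4:**
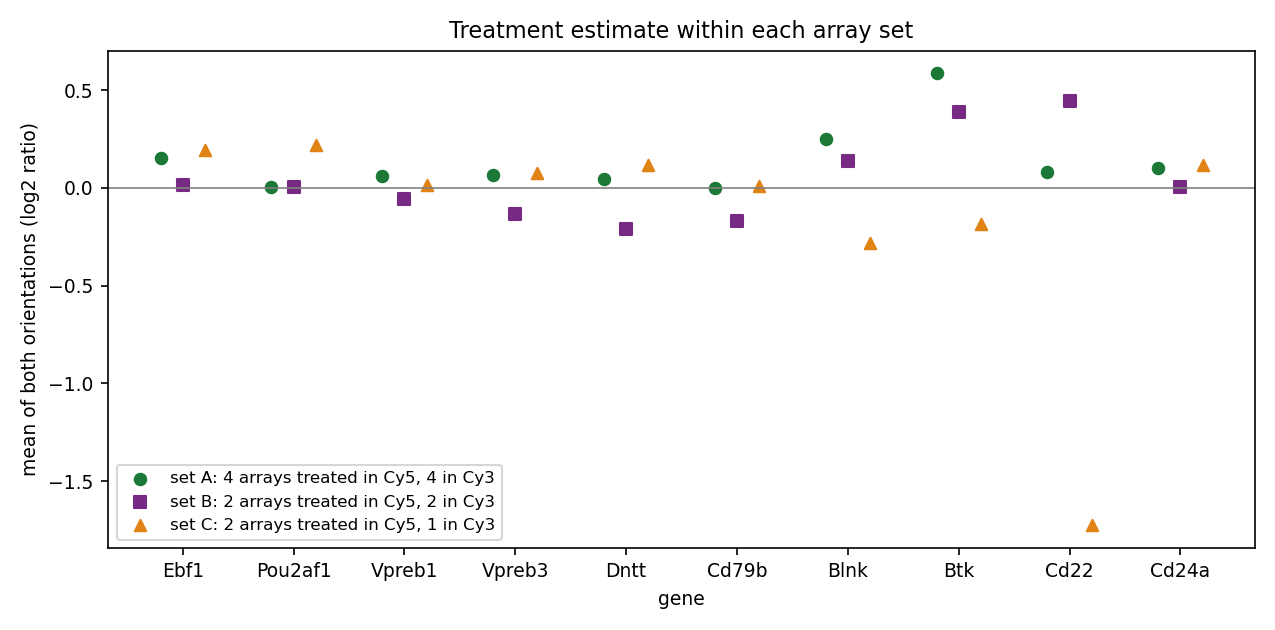
Treatment estimate (y axis, log2 ratio, mean of both orientations) of each gene (x axis) within the 3 array sets. Btk lies at 0.59 and 0.39 in sets A and B and at -0.19 in set C, and Cd22 lies at -1.73 in set C.

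The 10 genes were also set against each other from array to array. Over the 45 pairs, the correlation of gene values across the 15 arrays had a median of -0.02 and ran from -0.56 to 0.68. The highest was between Ebf1 and Cd24a, at 0.91 with treated RNA in Cy5 and 0.65 with treated RNA in Cy3, and it was 0.45 over both without arrays 1 and 12, the farthest from the Ebf1 median. Between single probes of these genes it ran from 0.16 to 0.41, and without dim values from 0.07 to 0.39. Ebf1 and Cd22, whose window holds the EBF string, had a correlation of 0.15. These correlations are over arrays that share their dyes and spot quality and are given as a description.

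The genes most like each one over the arrays, among 8297 genes measured on all of them, were chosen for their high correlation. Each r is followed by its value without the 2 arrays farthest from the median of the B cell gene. For Ebf1 they were H2-Ab1, an MHC class II chain (r = 0.84, then 0.62), and Htr3a, a serotonin-gated channel (0.83, then 0.75). For Vpreb1 they were Ube2j2 (0.87, then 0.77) and Ptpn6, the phosphatase SHP-1 that Cd22 recruits (0.86, then 0.80). For Vpreb3 they were Armc3 (0.84, then 0.54) and Fam89b (0.83, then 0.51). For Dntt they were Fhit (0.87, then 0.78) and 1700037C18Rik (0.83, then 0.84), and for Pou2af1 Tmem123 (0.89, then 0.79) and Trappc5 (0.87, then 0.73). For Cd79b they were Pi4k2b (0.75, then 0.66) and Cwf19l1 (0.73, then 0.68), and for Blnk Exosc7 (0.84, then 0.67) and Sppl2b (0.79, then 0.50). For Btk they were Zfp90 (0.84, then 0.62) and Sc5d (0.83, then 0.71). For Cd24a they were Fam186a (0.91, then 0.95) and Nr3c1, the glucocorticoid receptor (0.84, then 0.59). For Cd22 they were Prg2 (0.93, then 0.22) and Adgrf5 (0.91, then 0.46), and the arrays left out were 7 and 8. Each of these pairs comes from a search over all 8297 genes on 15 arrays, and the highest of so many is high by construction.

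Around these genes, the wider B cell lists held no treatment estimate past the threshold. They count some of the 10 genes again. These are 2 of the transcription factors, 5 of the receptor and signalling genes, 1 of the inhibitory genes and 1 of the V(D)J genes. Of the B-lineage transcription factors, 25 of 33 were tested, with 16 above and 9 below 0 and a median of 0.053. Their dye effects, the response if the swaps have to be turned, lay the other way, with 8 above and 17 below 0 and a median of -0.066. By the treatment estimate, the one with the smallest p was Id2, an inhibitor of E proteins, at -0.55 ± 0.13 (SE, n = 15 arrays, limma adjusted p = 0.250). Of the pre-B and B cell receptor and signalling genes, 19 of 32 were tested, with 11 above and 8 below 0 (dye effect 9 and 10). Pik3ap1, the adaptor BCAP, had an estimate of -0.22 ± 0.07 (SE; limma adjusted p = 0.496). Plcg2, the phospholipase that Blnk and Btk activate, passed on the dye effect alone, at -0.24 ± 0.05 (SE; limma adjusted p = 0.0295). Of the inhibitory co-receptors and phosphatases, 10 of 15 were tested, with 6 above and 4 below 0 (dye effect 2 and 8). Ptprc, the phosphatase CD45, had an estimate of 0.19 ± 0.05 (SE, limma adjusted p = 0.392). Its dye effect was -0.20 ± 0.05 (SE, limma adjusted p = 0.0594).

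Of the V(D)J recombination and end joining genes, 10 of 21 were tested, with 3 above and 7 below 0 and a median of -0.04 (dye effect 5 and 5, median -0.04). Polm, a polymerase related to terminal transferase, had -0.61 ± 0.23 (SE, n = 14 arrays; limma adjusted p = 0.633), and H2ax passed on the dye effect alone, at 0.39 ± 0.08 (SE; limma adjusted p = 0.0253). Of the IL-7, FLT3 and KIT signalling genes, 14 of 24 were tested, with 7 above and 7 below 0 (dye effect 10 and 4). Stat5a, which relays IL-7 signals in pro-B cells, had 0.26 ± 0.05 (SE, above 0 on 15 of 15 arrays; limma adjusted p = 0.0992), and Pim1, a kinase that Stat5 induces, passed on the dye effect alone at 0.35 ± 0.07 (SE; limma adjusted p = 0.0165). The median of all genes was 0.0054 for the treatment estimate and -0.0034 for the dye effect.

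Markers of other cell types were counted in the same way. By the treatment estimate, above and below 0 stood 5 and 8 of 13 mature B cell genes tested (of 24 listed), 5 and 8 of 13 T and NK cell genes (of 28), and 4 and 15 of 19 myeloid genes (of 25). For erythroid and megakaryocyte genes the numbers were 4 and 4 of 8 (of 14), for fibroblast genes 11 and 7 of 18 (of 20), and for pluripotency genes 8 and 5 of 13 (of 20). By the dye effect, the counts above and below 0 were 10 and 3 for mature B cell genes, 5 and 8 for T and NK cell genes, and 13 and 6 for myeloid genes. They were 4 and 4 for erythroid and megakaryocyte genes, 9 and 9 for fibroblast genes, and 4 and 9 for pluripotency genes. The direction of the mature B cell, myeloid and pluripotency counts thus turns with the reading of the ratio. None passed on the treatment estimate. The genes with the smallest p were Cd52 (-0.15 ± 0.05), Gata3 (-0.22 ± 0.12), Camp (-0.30 ± 0.09), Pf4 (-0.14 ± 0.07), S100a4 (-0.16 ± 0.05) and Esrrb (0.45 ± 0.17), each an estimate with its SE and limma adjusted p between 0.427 and 0.753. The myeloid gene S100a9 passed on the dye effect alone, at 0.31 ± 0.06 (SE; limma adjusted p = 0.0126). The part of such cells in the values of the 10 genes was not tested. Ratios give no level, so the lymphoid label of the line could not be checked against its defining markers.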

How the data were processed

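The authors deposited 1 log2 ratio per probe and array for 20205 probes, a scale recognised from the values. Per the labels' protocols, total RNA was reverse transcribed and labelled indirectly with Cy3 or Cy5. The sources used here do not give the normalization, the background correction or the ratio's direction, and scanner intensities were not used here. All 15 arrays form 1 group.

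Values with an absolute log2 above 10 (1999, at 1223 probes) were set missing. Symbols came from the platform annotation (13891 probes with 1 symbol, 5 with several, 6309 with none), of which 13855 were updated through RefSeq (GRCm38.p6). Probes of a gene were averaged on each array. The functions lmFit and eBayes of limma 3.58.1 (R 4.3.3) then fitted the treatment estimate and the dye effect of every gene and probe measured on 4 or more arrays per orientation, with two-sided p-values adjusted by Benjamini-Hochberg over all of them. The fit was also run on simulated data with independent normal noise. These held no dye effects or array sets, so they do not test the fit under such conditions. The number of arrays limits the precision.

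The 10 genes, the gene lists and the reading of the ratio's direction were chosen with earlier results of these data known. Of each list, genes past the threshold on the treatment estimate are named, or else the one with the smallest unadjusted p. On the dye effect, only genes past the threshold were picked. For each of the 10 genes, the 2 genes with the highest Pearson r are named too. Arrays 7, 8 and 15 left out, and the array sets, were chosen after seeing the data. The other alternatives were the ratio's sign, placeholders, the dye term, centring, scaling, quantile normalization, filters, weights, the prior, the probe summary, dim values, each orientation alone, a block by title number and each array left out.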

Additional observations from a re-analysis of the deposited data

Results flagged for a closer look

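Among 26 groups of values (13 probes in 2 orientations), 4 held 1 array far from the others. For normally distributed values, the gap rule used here would flag about 1 group in 20. Its share over all probes was not computed, so whether these genes differ from others in this count is not known. On the dye swaps, Btk stood at 2.133 on array 12, with the next highest at 0.386. Cd24a probe 15531 stood at 2.237 on array 14, with the next highest at 0.43, and Ebf1 probe 5173 at 1.582 on array 15, with the next highest at 0.068. With treated RNA in Cy5, Cd24a probe 19734 stood at 0.376 on array 2, with the next highest at 0.132. The 2 low values of Cd22 on arrays 7 and 8 are not among these, since a pair of low values leaves no wide gap at the end of the range. What sets these values apart was not tested.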

How the results depend on the processing

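Of 897 values of the 10 genes and 13 probes under the alternatives run, 832 kept their sign and their side of the threshold, 64 changed sign (24 of them with 1 array left out) and 1 passed the threshold: the dye effect of Dntt with array weights (-0.32). Turning the swaps only exchanges the treatment estimate and the dye effect, so the sign changes under it were fixed by the main fit. No treatment estimate of these genes passed under any alternative. The lowest limma adjusted p was 0.107, that of Dntt with the swaps turned. Over all genes, 4 passed on the treatment estimate, against 254 with the swaps turned, 8 with placeholders in, 11 with array weights, 8 with the most measured probe, 0 in each orientation alone, without arrays 7, 8 and 15 or within set A or B, and 0 to 7 with each array left out. On the dye effect 254 passed, against 4 with the swaps turned, 676 with weights, 571 without arrays 7, 8 and 15, 47 and 1 within sets A and B, and 99 to 431 with each array left out. Of the probes 10 passed, against 545 with the swaps turned, 2 without arrays 7, 8 and 15, and 4 to 13 with each array left out. The cause was not tested. Treatment estimates changed sign as follows: with the swaps turned Vpreb1 -0.20, Pou2af1 -0.19 and Cd24a -0.026 (probes: Ebf1 3253 0.081, Ebf1 5173 -0.035, Cd24a 15531 -0.21, Cd24a 19734 0.15); with quantile normalization Vpreb3 -0.0012; with weights Vpreb1 -0.0057 and Vpreb3 -0.026; in Cy5 alone Vpreb1 -0.16 and Pou2af1 -0.13; in Cy3 alone Vpreb3 -0.10, Dntt 0.29, Blnk -0.0019 and Cd22 0.11; without arrays 7, 8 and 15 Vpreb3 -0.0018, Cd22 0.20 and probe 5173 -0.065; without dim values probe 19734 0.0013; within set A Dntt 0.048, Cd79b 0.001 and Cd22 0.082; within set B Vpreb1 -0.058, Vpreb3 -0.13 and Cd22 0.45. Dye effects changed sign with the swaps turned for Vpreb1 (0.034), Pou2af1 (0.056) and Cd24a (0.070), with weights for Cd79b (0.018), with the most measured probe for Ebf1 (-0.035), without arrays 7, 8 and 15 for Cd22 (0.20) and Cd24a (0.0028), within set A for Cd22 (0.42) and Cd24a (0.058), and within set B for Cd79b (0.12). With each array left out, treatment estimates ran from -0.034 to 0.034 for Vpreb3, -0.0012 to 0.072 for Vpreb1, -0.098 to 0.0017 for Dntt and -0.058 to 0.12 for probe 5173, and dye effects from -0.031 to 0.17 for Btk and -0.085 to 0.040 for Cd24a. No paired analysis was possible because the arrays form 1 group; a random replicate block by title number left 4 genes past the threshold. Signal over background is unknown, and dim values mark where it may limit a value, except for ratios too far from 0 for the rule to cover.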

Other observations

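Array by array, the median over the 10 genes ran from -0.11 on array 8 to 0.27 on array 2 (log2). On array 1, 9 of the 10 genes were above 0, and on array 8 only 2 were; both arrays had treated RNA in Cy5. Over all genes the array medians were 0.05 on array 1 and -0.01 on array 8.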
